A study of Homo sapiens with 9 samples.

Results

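ATP-binding cassette (ABC) genes encode the pumps that use ATP to move drugs, lipids, metabolites and peptides across membranes, and they were examined here by RNA sequencing in cells labelled HCT-15, the name of a long-established cell line from a human colorectal adenocarcinoma. Members were all protein-coding genes whose symbol is ABCA, ABCB, ABCC, ABCD, ABCE, ABCF or ABCG followed by a number. This rule used names only and gave 45 of the 36018 genes listed in each library, of which 12 are in subfamily ABCA, 9 in ABCB, 11 in ABCC, 4 in ABCD, 1 in ABCE, 3 in ABCF and 5 in ABCG. Of the 45 genes, 33 passed the filter on low counts and were tested, and 12 did not. A gene present in only 1 group passes the filter through that group, so the 33 are not a neutral sample of the 45.

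There were 9 libraries in 3 groups of 3, all labelled as wild type HCT-15 and grown in RPMI1640 medium with fetal bovine serum. The control group was untreated. The CoCl2-tolerant line had been kept in rising concentrations of cobalt chloride, a salt used as a chemical mimic of low oxygen, until the cells tolerated it, and the low-glucose-tolerant line had been kept in low glucose in the same manner. The labels name 1 resulting line per agent and give no final dose, no glucose level and no clone number, so a property of the derived line and an effect of the agent cannot be told apart. Nothing in them tells whether a group's 3 libraries were grown separately. What the p-values measure is thus the difference between these libraries alone, and it may be technical. A line made tolerant to brefeldin A was not analysed here. As in any bulk RNA sample, fewer cells with a transcript and less of it per cell cannot be told apart.

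Libraries held 25178615 to 32674687 counts, and 3 counts corresponded to 0.0918 to 0.119 CPM (the usual depth-scaled count, with TMM scaling between libraries). ABC genes took 0.144 to 0.151% of counts in control libraries, 0.160 to 0.172% in those of the CoCl2-tolerant line and 0.143 to 0.172% in those of the low-glucose-tolerant line. The group's marker genes ABCB1 and ABCB4 were both detected in all 9 libraries. Of 13 measured intestinal epithelial markers, 7 were under 1 CPM in every group (CDX1, CDX2, VIL1, CDH17, KRT20, MUC2 and HNF4A), while the keratins KRT8, KRT18 and KRT19 and the adhesion molecule EPCAM were present. The identity of the cells was not checked against a reference beyond these markers. Summed, the intestinal markers stood at 1353 to 1389 CPM in control libraries, 1382 to 1678 CPM in those of the CoCl2-tolerant line and 2495 to 3406 CPM in those of the low-glucose-tolerant line, nearly all keratins. KRT18 went from 107 CPM in control to 572 CPM in low-glucose-tolerant cells, while LGR5 went from 1.62 to 0.0797 CPM and GPA33 from 1.14 to 0.103 CPM. Of 7 fibroblast markers, 4 were under 1 CPM in every group, as were 5 of 6 leukocyte and 5 of 5 endothelial markers. The summed fibroblast markers were mostly COL1A1 (1857 CPM in control, 250.3 CPM in CoCl2-tolerant and 21.5 CPM in low-glucose-tolerant cells). Their sum ran from 1834 to 1882 CPM in control, 242 to 274 CPM in CoCl2-tolerant and 25.4 to 35.6 CPM in low-glucose-tolerant libraries. In low-glucose-tolerant cells COL1A2, COL3A1 and PDGFRB did not pass against control (edgeR adjusted p = 0.847, 0.667 and 0.752). DCN rose there from 0.0421 to 0.626 CPM (edgeR adjusted p = 1.42e-05). In CoCl2-tolerant cells PDGFRB fell (edgeR adjusted p = 8.59e-06) and COL1A2, COL3A1 and DCN did not pass. The part of these marker shifts in the results was not tested. The mitochondrial share of counts also separated control (8.08 to 9.80%) from the CoCl2-tolerant (4.64 to 6.67%) and low-glucose-tolerant libraries (4.74 to 5.20%), and its part was not tested. Low-glucose-tolerant replicate 2 stood apart from replicates 1 and 3 (chi-squared per degree of freedom 56.2 and 74.1, against 27.2 between replicates 1 and 3). CoCl2-tolerant replicate 1 stood apart from replicates 2 and 3 (32.8 and 22.6, against 8.36 between replicates 2 and 3). Calls that changed without either of these libraries are named with the genes below.

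An ABC protein couples ATP binding and hydrolysis by its nucleotide-binding domains to a change in shape of its membrane domains. ABCB1 (P-glycoprotein), ABCC1 (MRP1) and ABCG2 (BCRP) are the pumps best known for multidrug resistance, and HCT-15 is known as a colon cancer line with native P-glycoprotein. Most other members have physiological cargoes: ABCA and several ABCG proteins move sterols and phospholipids, ABCB6 and several of its relatives work in mitochondria or lysosomes, ABCD proteins feed peroxisomes and lysosomes, ABCC8 and ABCC9 regulate potassium channels, and ABCE1 and ABCF proteins lack a membrane domain and act on ribosomes. In the gut, ABC pumps of the apical membrane return drugs and sterols to the lumen.

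Promoter windows from RefSeq (GRCh38.p14, 250 bases before to 50 after a transcription start) are shown for the drug pump ABCB1 and for ABCB6, ABCA5 and ABCC9, 3 of the members with a window whose 3 groups of libraries did not overlap. All 4 genes lie on the minus strand, and each sequence reads 5′ to 3′ along the gene. Capitals mark matches, on either strand, to ACGTG (the core bound by hypoxia-inducible factors), GCGTG (the aryl hydrocarbon receptor core), TGACNNNGC (the antioxidant response core) or CCAAT (the NF-Y box).
ABCB1, downstream start of 2 (chr7:87600835-87601134): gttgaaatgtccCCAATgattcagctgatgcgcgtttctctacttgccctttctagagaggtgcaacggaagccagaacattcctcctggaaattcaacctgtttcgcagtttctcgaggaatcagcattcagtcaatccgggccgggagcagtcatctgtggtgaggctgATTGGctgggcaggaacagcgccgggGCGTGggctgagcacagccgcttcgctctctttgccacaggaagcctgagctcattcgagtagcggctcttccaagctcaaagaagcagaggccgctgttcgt
ABCB6 (chr2:219218909-219219208): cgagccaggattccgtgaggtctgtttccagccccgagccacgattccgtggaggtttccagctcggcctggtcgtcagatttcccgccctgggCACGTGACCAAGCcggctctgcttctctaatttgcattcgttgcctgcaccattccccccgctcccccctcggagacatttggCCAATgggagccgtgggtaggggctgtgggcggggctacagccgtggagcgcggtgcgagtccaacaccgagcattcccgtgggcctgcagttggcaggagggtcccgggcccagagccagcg
ABCA5 (chr17:69327084-69327383): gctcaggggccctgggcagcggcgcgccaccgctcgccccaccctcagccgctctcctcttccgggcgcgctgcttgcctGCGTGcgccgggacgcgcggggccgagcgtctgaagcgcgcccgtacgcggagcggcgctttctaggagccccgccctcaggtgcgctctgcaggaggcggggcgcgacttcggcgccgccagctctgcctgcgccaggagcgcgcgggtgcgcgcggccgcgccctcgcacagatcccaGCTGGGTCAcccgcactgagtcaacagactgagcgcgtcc
ABCC9 (chr12:21941377-21941676): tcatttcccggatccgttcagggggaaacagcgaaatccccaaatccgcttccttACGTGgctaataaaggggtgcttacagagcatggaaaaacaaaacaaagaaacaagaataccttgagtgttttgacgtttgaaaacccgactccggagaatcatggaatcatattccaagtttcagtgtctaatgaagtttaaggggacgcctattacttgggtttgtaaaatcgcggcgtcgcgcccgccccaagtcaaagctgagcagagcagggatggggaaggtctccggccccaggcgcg
The ABCB6 window held 2 matches to ACGTG, 1 on each strand of the same run, which overlapped its 1 match to TGACNNNGC, and 1 match to CCAAT. The ABCA5 window held 1 match to GCGTG and 1 to TGACNNNGC, the ABCC9 window 1 to ACGTG, and the ABCB1 window 1 to GCGTG and 2 to CCAAT. Matches of this kind are common: of 35116 windows of the same length in the RefSeq table, 21.4% held ACGTG, 36.5% GCGTG, 13.3% TGACNNNGC and 34.6% CCAAT. Among the 53 windows of the 35 members that had one, 14 (26.4%) held ACGTG, 23 (43.4%) GCGTG, 12 (22.6%) TGACNNNGC and 12 (22.6%) CCAAT. Several members have more than 1 start, with windows that overlap in ABCC6 and ABCG2, so these are descriptions of letters and say nothing of a factor. Members without a window included ABCA4, ABCA8, ABCB4, ABCB5, ABCC1, ABCC3, ABCC8 and ABCG1.

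Per kb of merged exons, 2 organic anion pumps and 2 ribosome-associated ATPases were the most abundant ABC genes in control cells. Merged exons join those of all annotated transcripts of a gene, so this length can exceed that of a single transcript. On the scale of CPM per kb of merged exons, ABCC3 stood at 37.7 ± 0.348 (SD, n = 3), ABCC1 at 29.8 ± 0.532, ABCF1 at 28.8 ± 0.777, ABCE1 at 11.99 ± 0.203 and ABCC4 at 10.8 ± 0.450. ABCC1 and ABCF1 lay within 1 or 2 SD of each other, and the other neighbours in this order were further apart. ABCB1 was at 2.42 ± 0.143 CPM per kb, the rank of 18 among 45, next to ABCC6 at 2.46 ± 0.0863, from which it did not differ beyond the spread. ABCC3 held the first rank in both tolerant lines, at 48.4 ± 6.36 CPM per kb in CoCl2-tolerant and 44.5 ± 5.14 CPM per kb in low-glucose-tolerant cells. Among the members that moved in this order, ABCF2 went from rank 15 in control and rank 11 in CoCl2-tolerant to rank 5 in low-glucose-tolerant cells, and ABCC9 from ranks 25 and 26 to rank 16.

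**Figure D1:**
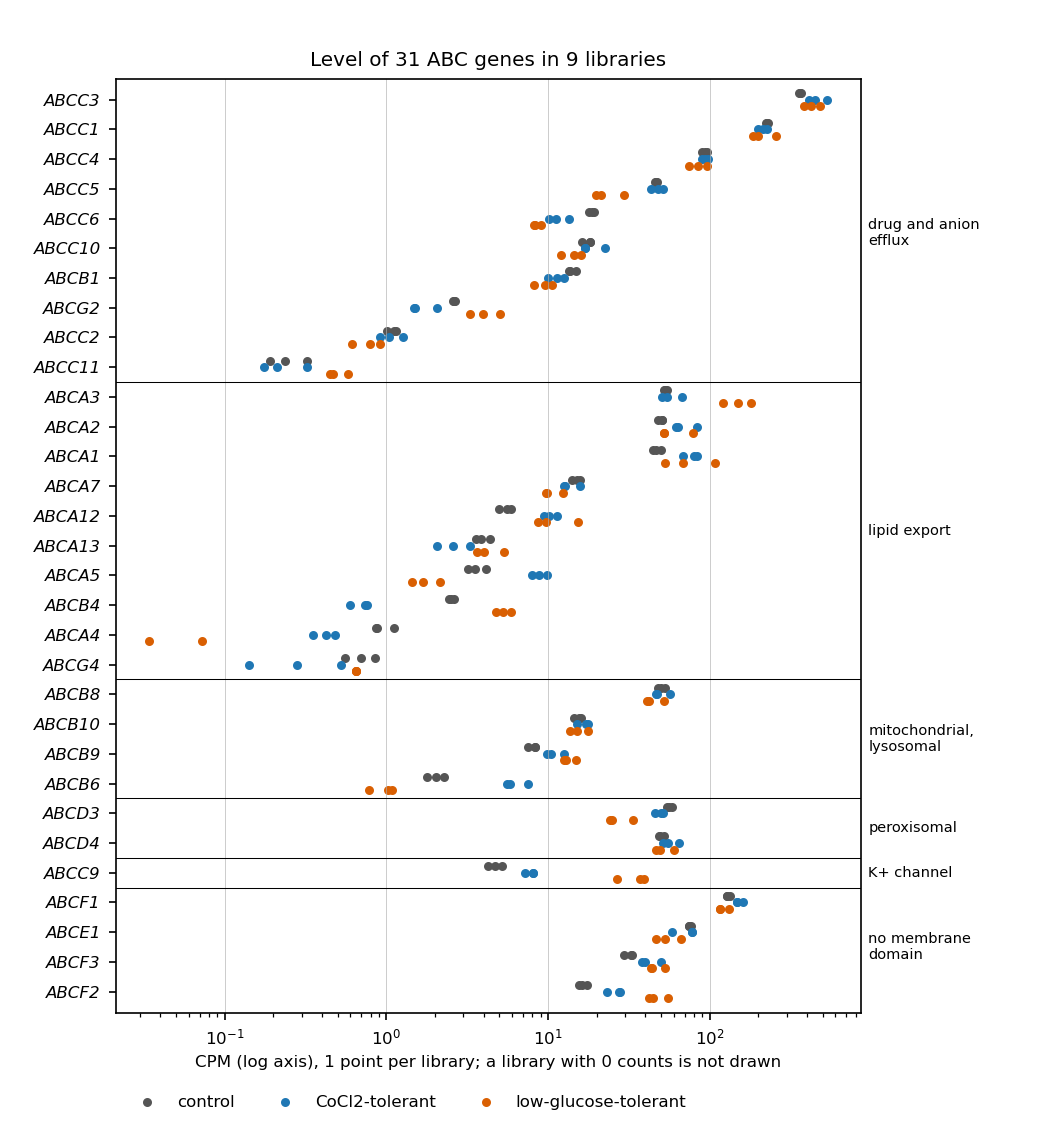
Level of 31 tested ABC genes in each of the 9 libraries, in CPM on a log axis, with genes grouped by role and ordered by their control mean. Most genes lie close together in the 3 groups, while ABCB6, ABCA5, ABCB4, ABCC9 and ABCA3 show a group set apart from the others, and ABCA4 is nearly absent from low-glucose-tolerant libraries, where 1 library with no count is not drawn.

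In the CoCl2-tolerant line, 18 of the 33 tested members (54.5%) differed from control at an edgeR adjusted p under 0.05, of which 10 were higher and 8 lower, against 36.1% of all 17902 genes tested (17.9% higher and 18.2% lower). The members' share lay above that background, and the difference between the shares was not tested. After a trend on gene length and GC content was removed, 22 members (66.7%) passed, 15 higher and 7 lower, against 44.5% of all genes. Without control replicate 1, 2 or 3, the count was 11, 10 and 11 (31.4, 28.6 and 31.4% of the members tested), against 25.2, 24.4 and 24.9% of all genes. Without CoCl2-tolerant replicate 1 it was 11 (32.4%), near the 30.6% of all genes. It was 19, 21 and 19 without low-glucose-tolerant replicate 1, 2 or 3 (54.3, 61.8 and 55.9%), against 36.8, 43.3 and 39.5% of all genes. Changes of at least 2-fold were found for 5 members (15.2%, background 11.1%). ABCA5 and ABCB6 rose (2 members, background 4.59%), and ABCA4, ABCB4 and ABCG4 fell (3 members, background 6.49%). The 3 CoCl2-tolerant libraries did not overlap the 3 control libraries for 21 members, or 63.6%, against 57.2% of all genes. The median log2 fold change was 0.014 over the members and 0.014 over all genes.

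In the low-glucose-tolerant line, 19 of the 33 members (57.6%) passed, 10 higher and 9 lower, against 69.2% of all genes (34.6% in each direction). Changes of at least 2-fold were found for 10 members, or 30.3%, with a background of 36.7%. They were higher for ABCA3, ABCA12, ABCB4, ABCC9 and ABCF2 (background 15.7%) and lower for ABCA4, ABCA5, ABCB6, ABCC6 and ABCD3 (background 21%). Libraries did not overlap for 24 members, or 72.7%, against 73.3% of all genes. The median size of the log2 fold change, regardless of sign, was 0.56 over members and 0.74 over all genes, so the shares of ABC genes that changed in this line were near or below those of genes at large. Between the tolerant lines, 20 members (60.6%) passed, 10 in each direction, against 63.9% of all genes (31.9% higher and 32% lower in CoCl2-tolerant cells). Of these, 10 differed by at least 2-fold, with a background of 31.5%, and libraries of the lines did not overlap for 20 members, with a background of 63.1%. Both comparisons with control use the same 3 control libraries, so the 2 sets of values below are given side by side and their likeness is not read as a result.

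**Figure D2:**
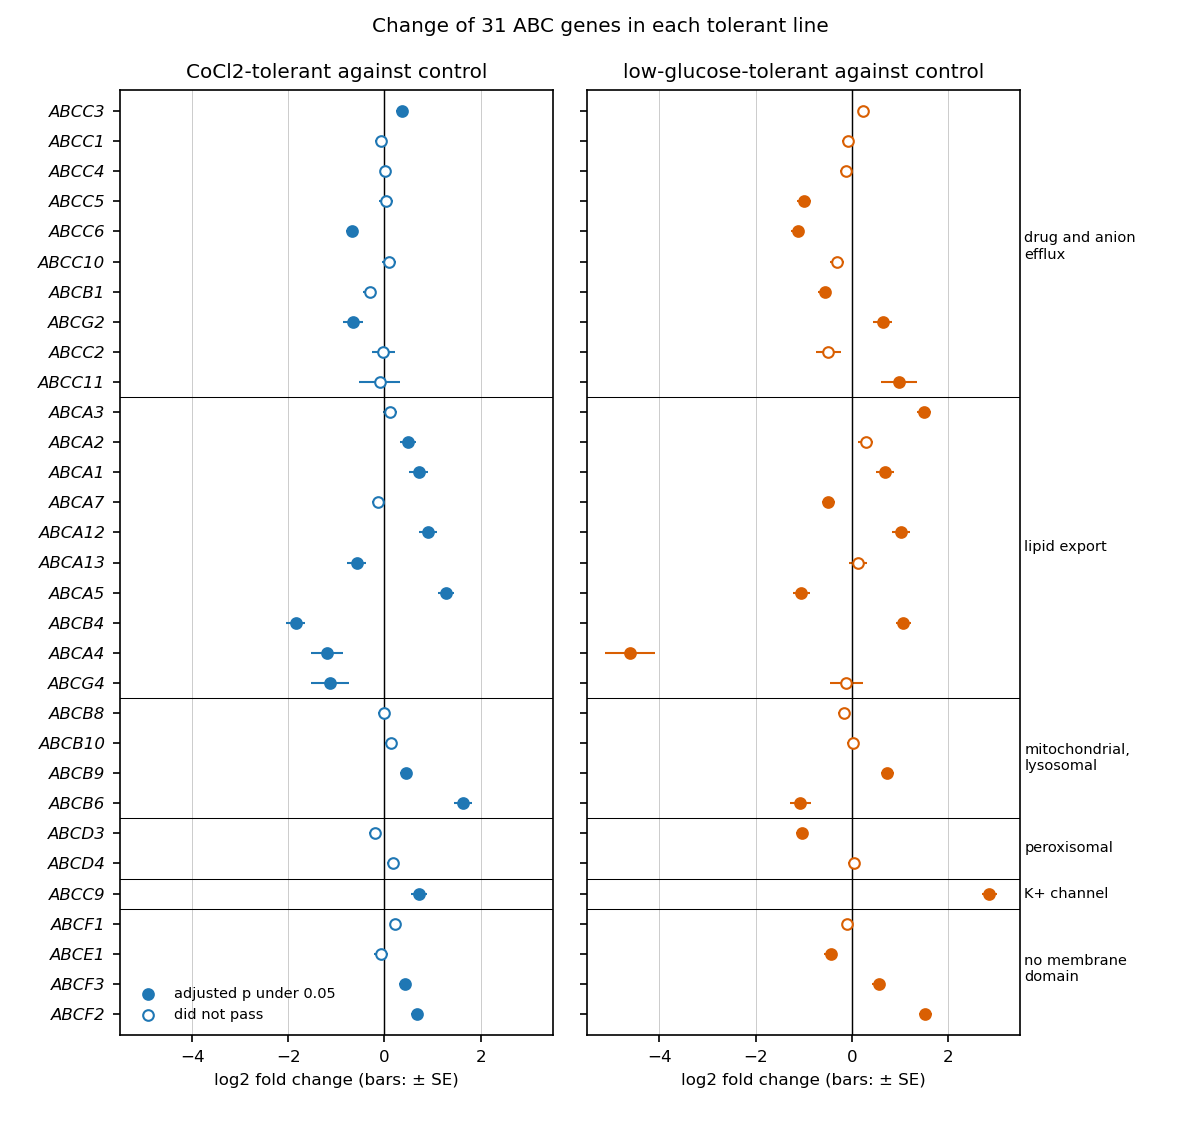
Log2 fold change (± SE, edgeR) of 31 tested ABC genes in each tolerant line against control, with filled points for an adjusted p under 0.05. ABCB6 and ABCA5 lie to the right of 0 in the CoCl2-tolerant panel and to the left in the low-glucose-tolerant panel, ABCB4 and ABCG2 the reverse, and the ABCA4 point at the far left rests on 3 counts in low-glucose-tolerant libraries.

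Among the multidrug and organic anion pumps, 10 of 12 members were tested, and the abundant pumps ABCC1 and ABCC4 did not pass against control in either line. In CoCl2-tolerant cells ABCC3 rose, ABCC6 and ABCG2 fell, and 7 did not pass, so that 30% were called against 36.1% of all genes. In low-glucose-tolerant cells ABCC11 and ABCG2 rose, ABCB1, ABCC5 and ABCC6 fell, and 5 did not pass, or 50% called against 69.2% of all genes. The median log2 fold change of the 10 was -0.05 in the first line and -0.22 in the second, beside 0.014 and -0.008 for all genes.

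ABCB1 encodes P-glycoprotein, which exports many hydrophobic anticancer drugs (ENSG00000085563, GRCh38 chromosome 7, 87503633 to 87713323, minus strand). Its level was 13.7, 15.0 and 13.45 CPM in control replicates 1 to 3, 11.45, 10.02 and 12.55 CPM in CoCl2-tolerant and 9.56, 10.7 and 8.18 CPM in low-glucose-tolerant replicates. Every library of either tolerant line lay below every control library. The fall in low-glucose-tolerant cells was -0.57 ± 0.13 on the log2 scale (edgeR adjusted p = 0.00178). In CoCl2-tolerant cells the log2 difference was -0.31 ± 0.13 and did not pass (edgeR adjusted p = 0.0870), although it did without low-glucose-tolerant replicate 2 (0.0481) and in a fit of only the 2 groups (0.0323). The tolerant lines differed from each other by 0.26 ± 0.14 (edgeR adjusted p = 0.110, and 0.0385 with low-glucose-tolerant replicate 2 left out).

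ABCB4 encodes MDR3, the close relative of P-glycoprotein that moves phosphatidylcholine to the outer leaflet of the membrane (ENSG00000005471, chromosome 7, 87401697 to 87480435, minus strand). It lies 23197 bases from ABCB1, on the same strand. Its level was 2.44, 2.62 and 2.51 CPM in control, 0.763, 0.596 and 0.742 CPM in CoCl2-tolerant and 4.76, 5.90 and 5.29 CPM in low-glucose-tolerant libraries. The 3 groups did not overlap, with the CoCl2-tolerant libraries lowest and the low-glucose-tolerant libraries highest. The log2 fold change was -1.85 ± 0.20 in CoCl2-tolerant (edgeR adjusted p = 8.99e-06) and 1.07 ± 0.16 in low-glucose-tolerant cells (edgeR adjusted p = 3.12e-05). On the scale of CPM per kb, ABCB1 exceeded ABCB4 by a ratio of 7.13 to 7.61 in control libraries. That ratio was 19.96 to 22.5 in the CoCl2-tolerant line and 2.06 to 2.67 in the low-glucose-tolerant line. Thus the neighbouring genes did not keep a fixed proportion across the lines.

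ABCG2 encodes BCRP, which exports drugs, urate and porphyrins (ENSG00000118777, chromosome 4, 88090264 to 88231322, minus strand). It measured 2.60, 2.68 and 2.64 CPM in control, 1.49, 1.51 and 2.05 CPM in CoCl2-tolerant and 5.07, 3.98 and 3.30 CPM in low-glucose-tolerant libraries. No group overlapped another. The log2 fold change was 0.64 ± 0.19 in low-glucose-tolerant cells (edgeR adjusted p = 0.00783) and -0.65 ± 0.21 in CoCl2-tolerant cells (edgeR adjusted p = 0.0256). The fall in CoCl2-tolerant cells kept its sign and size but missed the threshold without control replicate 1, 2 or 3 (edgeR adjusted p = 0.0619, 0.0710 and 0.0663) and without CoCl2-tolerant replicate 1 or 2 (0.0801 and 0.0883).

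**Figure D3:**
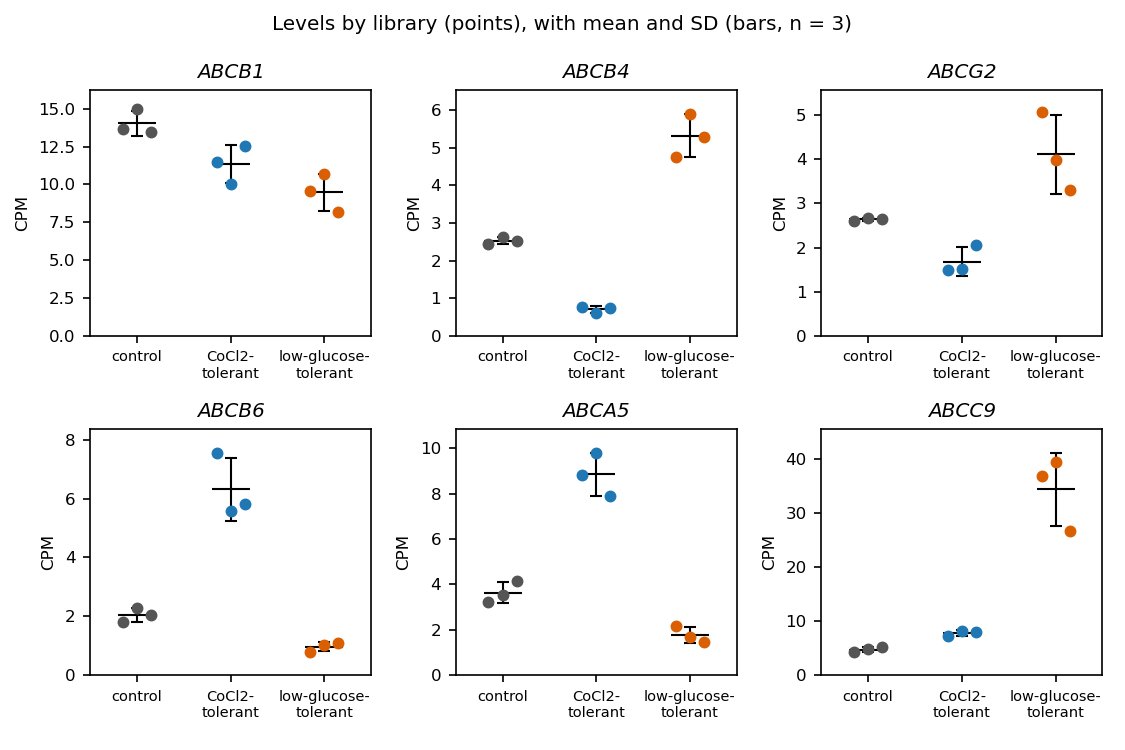
CPM of 6 ABC genes in each library (points) with the group mean and SD (bars, n = 3), on linear axes from 0. ABCB1 lies below control in every library of both tolerant lines, ABCB4 and ABCG2 are lowest in CoCl2-tolerant and highest in low-glucose-tolerant libraries, ABCB6 and ABCA5 show the opposite order, and ABCC9 reaches 26.7 to 39.5 CPM in low-glucose-tolerant libraries.

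ABCC1 encodes MRP1, which exports glutathione, glucuronide and sulfate conjugates. It measured 225, 230 and 222 CPM in control, 227, 212 and 200 CPM in CoCl2-tolerant and 184, 257 and 200 CPM in low-glucose-tolerant libraries. The groups overlapped, and the log2 differences from control were -0.08 ± 0.12 (edgeR adjusted p = 0.634) and -0.08 ± 0.12 (edgeR adjusted p = 0.587). Low-glucose-tolerant replicate 2 was the highest of all 9 libraries, and without it the low-glucose-tolerant difference was -0.22 (edgeR adjusted p = 0.0353). ABCC4 (MRP4), an exporter of cyclic nucleotides and prostaglandins, ran from 89.1 to 96.9 CPM in control, 90.0 to 98.3 CPM in CoCl2-tolerant and 74.9 to 96.7 CPM in low-glucose-tolerant libraries, and did not pass (edgeR adjusted p = 0.935 and 0.330). ABCC2 (MRP2), an apical conjugate pump, was near 1 CPM in control, at 1.008, 1.15 and 1.11 CPM, and did not pass against either line (edgeR adjusted p = 0.959 and 0.0994). It measured 1.04, 1.26 and 0.919 CPM in CoCl2-tolerant and 0.918, 0.617 and 0.797 CPM in low-glucose-tolerant libraries.

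ABCC3 encodes MRP3, a basolateral exporter of glucuronides and bile salts and the most abundant member here. It measured 359, 366 and 361 CPM in control, 533, 448 and 414 CPM in CoCl2-tolerant and 382, 480 and 423 CPM in low-glucose-tolerant libraries, so all libraries of both lines lay above control. The rise was 0.36 ± 0.12 on the log2 scale in CoCl2-tolerant cells (edgeR adjusted p = 0.0289). It missed the threshold without control replicate 1, 2 or 3 (edgeR adjusted p = 0.0926, 0.0830 and 0.0908) or without CoCl2-tolerant replicate 1 (0.110), the highest library. In low-glucose-tolerant cells ABCC3 was 0.24 ± 0.12 higher on the log2 scale and did not pass (edgeR adjusted p = 0.0834), but did without low-glucose-tolerant replicate 1 (0.0310) or CoCl2-tolerant replicate 1 (0.0476). It also passed once a trend on length and GC content was removed (edgeR adjusted p = 0.000312).

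ABCC5 and ABCC6 were the pumps of this class that fell most in low-glucose-tolerant cells. ABCC5 (MRP5), which exports cyclic nucleotides, measured 47.4, 46.6 and 45.9 CPM in control, 51.8, 48.0 and 43.5 CPM in CoCl2-tolerant and 19.7, 29.5 and 21.3 CPM in low-glucose-tolerant libraries. Its fall in the low-glucose-tolerant line was -0.99 ± 0.14 on the log2 scale (edgeR adjusted p = 2.27e-05), while the CoCl2-tolerant libraries overlapped control (0.03 ± 0.14, edgeR adjusted p = 0.870). ABCC6 (MRP6), whose loss causes ectopic calcification, measured 19.2, 18.7 and 17.9 CPM in control, 13.4, 10.2 and 11.2 CPM in CoCl2-tolerant and 8.30, 9.12 and 8.15 CPM in low-glucose-tolerant libraries. It fell by 0.68 ± 0.13 and 1.12 ± 0.13 on the log2 scale (edgeR adjusted p = 0.000876 and 2.44e-06), with no overlap between the 3 groups. These ABCC6 values are uncertain, since its near-identical pseudogene copies can share reads with it. The copy ABCC6P1 stood at 8.38 ± 0.858, 6.23 ± 1.02 and 3.72 ± 0.667 CPM in the control, CoCl2 and low-glucose groups, in that order. ABCC6 lies 5853 bases from ABCC1 on chromosome 16, on the opposite strand.

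The remaining efflux members were weakly expressed or did not pass against control. ABCC10 (MRP7), which exports taxanes, ran from 16.2 to 18.3 CPM in control, 16.9 to 22.5 CPM in CoCl2-tolerant and 12.1 to 16.0 CPM in low-glucose-tolerant libraries. Its log2 difference in the low-glucose-tolerant line was -0.31 ± 0.14 (edgeR adjusted p = 0.0686, and 0.0273 with low-glucose-tolerant replicate 2 left out or 0.0412 with CoCl2-tolerant replicate 1 left out). ABCC11 (MRP8), known for its role in earwax type, held 24 counts in control, 19 in CoCl2-tolerant and 43 in low-glucose-tolerant libraries together. It measured 0.325, 0.235 and 0.191 CPM in control, 0.321, 0.175 and 0.212 CPM in CoCl2-tolerant and 0.578, 0.446 and 0.471 CPM in low-glucose-tolerant libraries. Its rise of 0.99 ± 0.37 in the low-glucose-tolerant line (edgeR adjusted p = 0.0290) missed the threshold without control replicate 2 or 3 (0.0878 and 0.112) or low-glucose-tolerant replicate 1 (0.0854). Of the untested pair, ABCB5 held 6, 21 and 1 counts and ABCC12 held 6, 2 and 0 counts in control, CoCl2-tolerant and low-glucose-tolerant libraries.

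Summed over the 12 efflux members, the level per kb of exon changed little while its make-up shifted by a few percentage points. The sum was 88.8 to 91.3 CPM per kb in control libraries, 90.5 to 107 CPM per kb in those of the CoCl2-tolerant line and 81.0 to 104 CPM per kb in those of the low-glucose-tolerant line, with overlap between all 3 groups. ABCC1 and ABCC3 together made up 74.5 to 75.3% of it in control libraries, 76.8 to 79.5% in those of the CoCl2-tolerant line and 79.0 to 81.8% in those of the low-glucose-tolerant line. ABCB1 made up 2.61 to 2.82%, 1.80 to 2.39% and 1.64 to 2.03%, and ABCG2 0.573 to 0.589%, 0.274 to 0.449% and 0.760 to 1.24%. ABCB1, the pump with the best known link to drug resistance, was thus a small fraction of the efflux transcripts in every library.

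**Figure D4:**
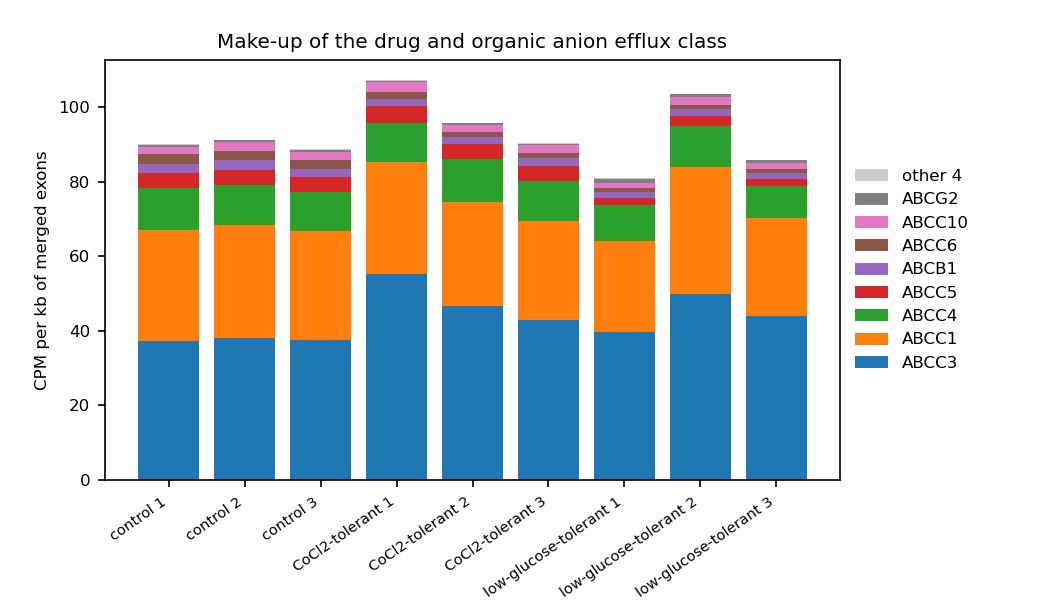
Stacked CPM per kb of merged exons of the 12 drug and organic anion efflux genes in each library, with the axis from 0. ABCC3 and ABCC1 form most of every bar, at 74.5 to 81.8% of the sum, and ABCB1 and ABCG2 are thin bands in all 9 libraries.

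The phospholipid, sterol and bile salt exporters held 18 members, of which 10 were tested. Of these, 80% were called in CoCl2-tolerant and 70% in low-glucose-tolerant cells, beside 36.1% and 69.2% of all genes. In CoCl2-tolerant cells ABCA1, ABCA2, ABCA5 and ABCA12 rose and ABCA4, ABCA13, ABCB4 and ABCG4 fell. In low-glucose-tolerant cells ABCA1, ABCA3, ABCA12 and ABCB4 rose and ABCA4, ABCA5 and ABCA7 fell. The class medians were -0.008 and 0.21 on the log2 scale.

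ABCA1, which loads cholesterol and phospholipid onto apolipoproteins, rose in both lines. It measured 44.7, 49.9 and 46.8 CPM in control, 68.3, 83.7 and 79.6 CPM in CoCl2-tolerant and 68.0, 107 and 53.1 CPM in low-glucose-tolerant libraries. No library of either line overlapped control, although the low-glucose-tolerant libraries differed among themselves, with replicate 2 highest. The log2 fold changes were 0.71 ± 0.19 and 0.69 ± 0.19 (edgeR adjusted p = 0.0105 and 0.00528). Without low-glucose-tolerant replicate 2 the latter was 0.37 (edgeR adjusted p = 0.0160). Its partner exporter ABCG1, which passes sterols to formed lipoproteins, was not tested: it held 8 counts in control, 1 in CoCl2-tolerant and 33 in low-glucose-tolerant libraries. Its per-library level was 0.0325, 0.118 and 0.0954 CPM in control, 0.0402, 0 and 0 CPM in CoCl2-tolerant and 0.136, 0.411 and 0.616 CPM in low-glucose-tolerant cells. The low-glucose-tolerant to control ratio of ABCG1 was 4.61, with an exact 95% interval of 2.08 to 11.5 that covers counting error only.

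ABCA3, which packs phospholipid into lamellar bodies of lung cells, was the most abundant lipid exporter per length in low-glucose-tolerant cells, at 19.4 ± 3.80 CPM per kb. It measured 52.5, 52.9 and 54.7 CPM in control, 67.5, 54.4 and 50.9 CPM in CoCl2-tolerant and 122, 181 and 150 CPM in low-glucose-tolerant libraries. The CoCl2-tolerant libraries overlapped control and the low-glucose-tolerant libraries lay above all others. The rise was 1.4995 ± 0.15 on the log2 scale (edgeR adjusted p = 4.84e-07). ABCA12, which moves glucosylceramide in skin, measured 4.98, 5.59 and 5.88 CPM in control, 10.1, 11.3 and 9.47 CPM in CoCl2-tolerant and 9.73, 15.3 and 8.62 CPM in low-glucose-tolerant libraries. It rose by 0.91 ± 0.19 and 1.03 ± 0.19 on the log2 scale (edgeR adjusted p = 0.00212 and 0.000222), and all libraries of both lines lay above control.

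ABCA5, a lysosomal sterol transporter (ENSG00000154265, chromosome 17, 69244311 to 69327244, minus strand), moved in opposite directions. It measured 3.22, 3.53 and 4.16 CPM in control, 8.84, 9.81 and 7.92 CPM in CoCl2-tolerant and 2.14, 1.68 and 1.45 CPM in low-glucose-tolerant libraries, with no overlap between any groups. It rose by 1.28 ± 0.16 in CoCl2-tolerant cells (edgeR adjusted p = 4.22e-05) and changed by -1.05 ± 0.19 in low-glucose-tolerant cells (edgeR adjusted p = 0.000171). The exons of ABCA5 have a GC content of 36.1% over 13158 merged bases, and after removal of a trend on length and GC content the low-glucose-tolerant difference was -0.23 and did not pass (edgeR adjusted p = 0.284). ABCA5 ends a cluster of 5 related genes, all on the minus strand, that spans 459953 bases of chromosome 17. The other four were under the filter: ABCA10 held 6, 42 and 9 counts in control, CoCl2-tolerant and low-glucose-tolerant libraries, ABCA6 2, 7 and 0, ABCA9 2, 5 and 0, and ABCA8 0, 1 and 0. The CoCl2-tolerant to control ratio of ABCA10 was 8.24 (exact 95% interval 3.48 to 23.7, counting error only).

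ABCA4, the retinal flippase of the visual cycle, was low in control and nearly lost in low-glucose-tolerant cells. It measured 0.878, 1.12 and 0.858 CPM in control, 0.482, 0.350 and 0.424 CPM in CoCl2-tolerant and 0, 0.0343 and 0.0724 CPM in low-glucose-tolerant libraries. Against 92 counts in control, low-glucose-tolerant libraries held 3, a ratio of control to low-glucose-tolerant of 27.5 with an exact 95% interval of 9.11 to 136 (edgeR adjusted p = 2.25e-06). The fall in CoCl2-tolerant cells was -1.19 ± 0.33 (edgeR adjusted p = 0.0130) and missed the threshold without control replicate 2 (0.0709) or CoCl2-tolerant replicate 2 (0.0541). ABCG4, a sterol exporter of the brain, measured 0.553, 0.853 and 0.699 CPM in control, 0.281, 0.525 and 0.141 CPM in CoCl2-tolerant and 0.646, 0.652 and 0.652 CPM in low-glucose-tolerant libraries. Its fall of -1.14 ± 0.39 in CoCl2-tolerant cells (edgeR adjusted p = 0.0349) missed the threshold without control replicate 2 or 3 (0.135 and 0.0804) or CoCl2-tolerant replicate 1 or 3 (0.0898 and 0.159), and was -1.74 without CoCl2-tolerant replicate 2, its highest library in that line.

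Of the remaining lipid exporters, ABCA2, which acts in lysosomal sphingolipid and sterol traffic, ran from 47.9 to 50.7 CPM in control, 61.9 to 83.4 CPM in CoCl2-tolerant and 51.9 to 78.4 CPM in low-glucose-tolerant libraries. Its rise of 0.49 ± 0.16 in CoCl2-tolerant cells (edgeR adjusted p = 0.0287) missed the threshold without control replicate 1, 2 or 3 (0.0906, 0.0748 and 0.0740) or CoCl2-tolerant replicate 1 (0.117). In low-glucose-tolerant cells ABCA2 did not pass (0.29 ± 0.16, edgeR adjusted p = 0.120, and 0.0464 with low-glucose-tolerant replicate 3 left out). ABCA7, a phospholipid exporter known from Alzheimer genetics, fell by 0.49 ± 0.14 on the log2 scale in low-glucose-tolerant cells (edgeR adjusted p = 0.00534) and did not pass in CoCl2-tolerant cells (edgeR adjusted p = 0.496). ABCA13, the longest member with 19074 merged exon bases, differed by -0.58 ± 0.20 in CoCl2-tolerant cells (edgeR adjusted p = 0.0369). That call was lost without control replicate 1, 2 or 3 (0.0779, 0.133 and 0.0578), without CoCl2-tolerant replicate 2 or 3 (0.0868 and 0.166), and once the trend on length and GC was removed (-0.30, edgeR adjusted p = 0.190). The canalicular bile salt pump ABCB11 held 1, 1 and 0 counts, and the sterol exporter subunits ABCG5 and ABCG8 held 2, 2 and 2 and 4, 20 and 2 counts in control, CoCl2-tolerant and low-glucose-tolerant libraries.

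The mitochondrial and lysosomal transporters of subfamily ABCB were all tested, and ABCB6 was the one with a large change. ABCB6 handles porphyrins in heme metabolism (ENSG00000115657, chromosome 2, 219209766 to 219219017, minus strand). It measured 1.79, 2.27 and 2.03 CPM in control, 7.55, 5.57 and 5.83 CPM in CoCl2-tolerant and 0.782, 1.03 and 1.09 CPM in low-glucose-tolerant libraries, and no 2 groups overlapped. The log2 fold changes were 1.63 ± 0.18 (edgeR adjusted p = 1.16e-05) and -1.07 ± 0.22 (edgeR adjusted p = 0.000520). A read-through gene, ENSG00000284820, shares 54.7% of the ABCB6 exon bases on the same strand, and the authors' counting may leave out reads in that stretch. That gene itself held 4, 15 and 4 counts.

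ABCB9, a lysosomal peptide transporter, rose from 8.05 ± 0.436 CPM in control to 9.83, 10.5 and 12.65 CPM in CoCl2-tolerant replicates 3, 2 and 1 and to 13.4 ± 1.21 CPM in low-glucose-tolerant cells (log2 fold changes 0.45 ± 0.13 and 0.74 ± 0.13, edgeR adjusted p = 0.0179 and 0.000184). The CoCl2-tolerant rise missed the threshold without control replicate 1 or 2 (0.0847 and 0.0525) or CoCl2-tolerant replicate 1 (0.0689). Of its exon bases, 24.4% overlap genes on the opposite strand, and a strand setting for the counting is not given in the sources used here. ABCB8 and ABCB10, of the inner mitochondrial membrane, did not pass in either line, with log2 differences of 0.0006 and 0.13 in the CoCl2-tolerant line and of -0.16 and 0.02 in the low-glucose-tolerant line.

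In the ABCD subfamily, 3 of 4 members were tested. ABCD3, the abundant peroxisomal importer of branched-chain acyl-CoA and bile acid precursors, measured 58.6, 56.0 and 54.2 CPM in control, 45.9, 49.99 and 51.4 CPM in CoCl2-tolerant and 33.4, 24.3 and 24.8 CPM in low-glucose-tolerant libraries. The low-glucose-tolerant libraries lay below all others, a fall of 1.03 ± 0.13 on the log2 scale (log2 fold change -1.03, edgeR adjusted p = 5.98e-06), and the CoCl2-tolerant difference did not pass (edgeR adjusted p = 0.246). Over the alternatives run, the low-glucose-tolerant log2 fold change of ABCD3 ranged from -1.19 to -0.51 and passed each time. ABCD4, which works with LMBRD1 in lysosomal release of cobalamin, did not pass in either line (edgeR adjusted p = 0.253 and 0.722), and ABCD2 held 16, 7 and 2 counts.

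ABCC9 encodes SUR2, the regulatory subunit that gives ATP-sensitive potassium channels their response to nucleotides and sulfonylureas (ENSG00000069431, chromosome 12, 21797401 to 21942529, minus strand). It measured 4.26, 4.74 and 5.18 CPM in control, 7.19, 8.13 and 8.06 CPM in CoCl2-tolerant and 37.0, 39.5 and 26.7 CPM in low-glucose-tolerant libraries. The groups followed each other without overlap, and the lowest low-glucose-tolerant library exceeded the highest CoCl2-tolerant library. The log2 fold change was 0.72 ± 0.16 in CoCl2-tolerant (edgeR adjusted p = 0.00330) and 2.86 ± 0.16 in low-glucose-tolerant cells (edgeR adjusted p = 1.68e-09), the largest rise among the tested members. Its relative ABCC8 (SUR1) held 3, 3 and 2 counts.

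The ATPases without a membrane domain were abundant and all tested. ABCF2 measured 15.7, 17.4 and 16.1 CPM in control, 27.5, 23.2 and 28.0 CPM in CoCl2-tolerant and 44.9, 42.4 and 54.9 CPM in low-glucose-tolerant libraries, with no overlap. It rose by 0.68 ± 0.13 and 1.53 ± 0.13 on the log2 scale (edgeR adjusted p = 0.00107 and 1.12e-07). The read-through gene ABCF2-H2BK1 shares 45.8% of the ABCF2 exon bases on the same strand and itself held 1, 0 and 2 counts. The authors' counting may leave out reads in that stretch, so the level of ABCF2 per kb may be too low. ABCF3, whose yeast relative acts with GCN proteins in translation control, rose from 31.7 ± 1.82 CPM to 42.7 ± 6.53 CPM in CoCl2-tolerant and 46.7 ± 5.45 CPM in low-glucose-tolerant cells (edgeR adjusted p = 0.0187 and 0.00143). Its CoCl2-tolerant rise was lost without control replicate 1 or 3 (0.0888 and 0.0535) or CoCl2-tolerant replicate 1 (0.0793).

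ABCE1, which splits ribosomes after termination, measured 76.6, 74.6 and 74.2 CPM in control, 58.8, 78.0 and 78.3 CPM in CoCl2-tolerant and 66.4, 53.0 and 46.8 CPM in low-glucose-tolerant libraries. The CoCl2-tolerant libraries lay on both sides of control (edgeR adjusted p = 0.739), and the low-glucose-tolerant libraries lay below it. That fall of -0.44 ± 0.14 (edgeR adjusted p = 0.0126) missed the threshold without low-glucose-tolerant replicate 3 (0.0609) and once the trend on length and GC was removed (-0.087, edgeR adjusted p = 0.237). ABCF1, which binds initiation factor eIF2, was 130 ± 3.51 CPM in control, 152 ± 7.44 CPM in CoCl2-tolerant and 121 ± 9.37 CPM in low-glucose-tolerant cells and did not pass against control (edgeR adjusted p = 0.0878 and 0.359). Without low-glucose-tolerant replicate 2 the CoCl2-tolerant difference of ABCF1 passed (edgeR adjusted p = 0.0373).

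The tolerant lines were also compared directly. For ABCB6, ABCA5, ABCB4 and ABCG2, which passed in opposite directions against the same control libraries, the difference follows from those calls and is no separate test. CoCl2-tolerant cells had more ABCB6 than low-glucose-tolerant cells by 2.70 ± 0.20 on the log2 scale (edgeR adjusted p = 4.61e-08), more ABCA5 by 2.33 ± 0.18 (edgeR adjusted p = 6.21e-08) and more ABCC5 by 1.02 ± 0.14 (edgeR adjusted p = 2.16e-05). They had less ABCB4 (-2.92 ± 0.19, edgeR adjusted p = 1.20e-08), ABCC9 (-2.14 ± 0.15, edgeR adjusted p = 2.92e-08), ABCA3 (-1.39 ± 0.15, edgeR adjusted p = 1.35e-06) and ABCG2 (-1.29 ± 0.20, edgeR adjusted p = 7.05e-05). ABCA4 held 34 against 3 counts in these lines, a ratio of 11.9 with an exact 95% interval of 3.76 to 60.8. ABCC11 and ABCG4, also past 2-fold here, lost their calls without CoCl2-tolerant replicate 3 (edgeR adjusted p = 0.0787 and 0.168) among other libraries, and each rests on under 100 counts in any group. ABCC1, ABCA1 and ABCC3 did not pass in this comparison (edgeR adjusted p = 0.980, 0.931 and 0.396), but ABCA1 did without low-glucose-tolerant replicate 2 (0.0267). Leaving out that library also gave ABCA2 and ABCC4 a call between the lines (edgeR adjusted p = 0.0101 and 0.0467) and ended those of ABCE1 and ABCG4 (0.0687 and 0.0612). Leaving out CoCl2-tolerant replicate 1 ended the calls of ABCA7, ABCC10 and ABCG4 (edgeR adjusted p = 0.127, 0.120 and 0.0879) and gave one to ABCB9 (0.0187).

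ABC proteins under other symbols were described in the same way. The peptide transporter subunits TAP1 and TAP2, which load MHC class I in the endoplasmic reticulum, stood at 45.2 ± 1.62 and 24.99 ± 1.13 CPM in control. In low-glucose-tolerant cells both rose, TAP1 to 80.9 ± 7.67 CPM (log2 fold change 0.84 ± 0.11, edgeR adjusted p = 1.36e-05) and TAP2 to 35.1 ± 2.38 CPM (0.49 ± 0.11, edgeR adjusted p = 0.000912). In CoCl2-tolerant cells TAP2 rose to 31.3 ± 1.65 CPM (edgeR adjusted p = 0.0280) and TAP1 was at 53.7 CPM (edgeR adjusted p = 0.103). The chloride channel CFTR held 11, 5 and 2 counts and was not tested.

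Genes that work beside the pumps were counted from lists, to be read against the 36.1% of all genes called in CoCl2-tolerant and 69.2% in low-glucose-tolerant cells. Of 20 tested drug carriers of other families, with the vault protein MVP, 8 rose and 8 fell in CoCl2-tolerant cells and 7 rose and 11 fell in low-glucose-tolerant cells, or 80% and 90% called. The prostaglandin importer SLCO2A1 fell from 13.7 ± 1.07 to 2.23 ± 0.4998 CPM in CoCl2-tolerant cells (edgeR adjusted p = 1.82e-07). It also fell in low-glucose-tolerant cells, to 6.25 ± 1.27 CPM (edgeR adjusted p = 3.36e-05). The organic anion importer SLCO2B1 moved oppositely in the lines, from 2.39 ± 0.257 CPM to 11.5 ± 1.41 CPM in CoCl2-tolerant (edgeR adjusted p = 6.64e-07) and 0.644 ± 0.250 CPM in low-glucose-tolerant cells (edgeR adjusted p = 8.11e-06). The cation exporter SLC47A1 (MATE1) rose from 2.55 ± 0.394 to 9.28 ± 0.694 CPM in CoCl2-tolerant cells (edgeR adjusted p = 1.43e-06). It also rose in low-glucose-tolerant cells, to 6.95 ± 1.11 CPM (edgeR adjusted p = 2.81e-06). In low-glucose-tolerant cells SLC47A2 (MATE2) rose from 0.825 ± 0.118 to 2.60 ± 0.294 CPM and the nucleoside transporter SLC29A2 fell from 19.0 ± 0.153 to 5.42 ± 0.865 CPM (edgeR adjusted p = 8.38e-06 and 2.83e-07). Both moved the same way in CoCl2-tolerant cells, SLC47A2 to 1.32 ± 0.176 CPM and SLC29A2 to 7.77 ± 1.82 CPM (edgeR adjusted p = 0.0327 and 3.49e-05).

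Glutathione is a cofactor or a conjugate in much of what the ABCC pumps export. Of 21 tested genes of glutathione supply and conjugation, 10 rose and 2 fell in CoCl2-tolerant cells and 11 rose and 4 fell in low-glucose-tolerant cells, with median log2 fold changes of 0.34 and 0.84 beside 0.014 and -0.008 over all genes. The shares called were 57.1% and 71.4%, against 36.1% and 69.2% of all genes. GCLM, the modifier subunit of the rate-limiting enzyme of glutathione synthesis, rose from 48.2 ± 0.450 to 160 ± 33.4 CPM in CoCl2-tolerant and 128 ± 17.3 CPM in low-glucose-tolerant cells (edgeR adjusted p = 1.17e-06 and 1.21e-06). The quinone reductase NQO1 rose from 237 ± 5.53 to 588 ± 35.6 and 715 ± 57.8 CPM in the same order (edgeR adjusted p = 4.77e-07 and 8.41e-09). The omega-class transferases GSTO1 and GSTO2 diverged in CoCl2-tolerant cells and both rose in low-glucose-tolerant cells. GSTO2 fell from 2.83 ± 0.606 to 1.17 ± 0.245 CPM in CoCl2-tolerant cells and rose to 12.2 ± 1.96 CPM in low-glucose-tolerant cells (edgeR adjusted p = 0.000712 and 1.98e-07). GSTO1 rose from 43.1 ± 3.99 to 102 ± 11.7 and 163 ± 41.2 CPM in the same order (edgeR adjusted p = 5.91e-05 and 1.73e-07). GSTZ1 rose from 10.7 ± 0.359 to 34.9 ± 7.73 CPM in low-glucose-tolerant cells (edgeR adjusted p = 9.17e-07) and did not pass in CoCl2-tolerant cells (edgeR adjusted p = 0.1505).

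Of 21 tested transcription factors that are known to act on ABC genes, 2 rose and 6 fell in CoCl2-tolerant cells, and 9 rose and 5 fell in low-glucose-tolerant cells. At 38.1% and 66.7% called, these shares lay near the 36.1% and 69.2% of all genes. The pair that rose in CoCl2-tolerant cells, named after their values were seen, was the sterol receptor NR1H2 (log2 fold change 0.42, edgeR adjusted p = 0.0335) and the hypoxia factor EPAS1 (0.46, edgeR adjusted p = 0.0170). EGR1, an immediate early factor, fell from 49.3 ± 3.46 CPM to 14.9 ± 1.36 CPM in CoCl2-tolerant and 1.93 ± 0.440 CPM in low-glucose-tolerant cells (edgeR adjusted p = 4.62e-07 and 2.78e-11). The transcript of the hypoxia factor HIF1A, which is controlled largely at the protein level, fell from 713 ± 52.2 CPM to 362 ± 70.0 and 231 ± 40.6 CPM (edgeR adjusted p = 0.000236 and 4.17e-07). PPARA, a fatty acid sensor, fell from 17.8 ± 0.524 to 9.29 ± 0.752 CPM in CoCl2-tolerant cells and rose to 25.1 ± 8.33 CPM in low-glucose-tolerant cells (edgeR adjusted p = 0.00139 and 0.0230), and its relative PPARG rose from 19.0 ± 0.296 to 100 ± 8.09 CPM in low-glucose-tolerant cells (edgeR adjusted p = 3.44e-10).

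Partners of sterol efflux and targets of the liver X receptors, the sterol sensors that also drive ABCA1 and ABCG1, changed in both directions. Of 11 tested, 4 rose and 5 fell in CoCl2-tolerant cells, and 5 rose and 2 fell in low-glucose-tolerant cells, or 81.8% and 63.6% called against 36.1% and 69.2% of all genes. In CoCl2-tolerant cells the lipid carrier APOE fell from 126 ± 4.56 to 40.5 ± 4.07 CPM, MYLIP, which degrades the LDL receptor, from 5.69 ± 0.547 to 1.57 ± 0.166 CPM, and the phospholipid enzyme LPCAT3 from 22.3 ± 1.90 to 11.2 ± 1.72 CPM (edgeR adjusted p = 9.25e-07, 1.22e-06 and 0.000169). The 4 that rose there, named after their values were seen, were the phospholipid transfer protein PLTP (log2 fold change 0.64), the cholesterol esterifying enzyme LCAT (0.69), the lysosomal sterol carrier NPC2 (0.52) and SMPDL3A (0.47), with edgeR adjusted p = 0.00129, 0.0026, 0.0190 and 0.0372. In low-glucose-tolerant cells PLTP rose from 70.3 ± 3.02 to 407 ± 51.1 CPM (edgeR adjusted p = 7.98e-10). There MYLIP rose to 10.4 ± 0.934 CPM (edgeR adjusted p = 5.56e-05). APOC1, which fell in CoCl2-tolerant cells (edgeR adjusted p = 0.0262), rose from 0.888 ± 0.158 to 3.10 ± 1.02 CPM and the cholesteryl ester hydrolase NCEH1 from 74.3 ± 2.69 to 146 ± 22.2 CPM (edgeR adjusted p = 3.86e-05 and 4.67e-06). The 2 that fell in low-glucose-tolerant cells, named after their values were seen, were LPCAT3 (log2 fold change -0.76) and SREBF1 (-0.45), with edgeR adjusted p = 0.00039 and 0.00236. APOE did not pass in that line (0.11, edgeR adjusted p = 0.489).

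Of 12 partners of ABCD transporters in peroxisomal import, fatty acid oxidation and cobalamin handling, only the thiolase ACAA1 passed in CoCl2-tolerant cells, rising from 24.4 ± 1.81 to 33.3 ± 6.92 CPM (edgeR adjusted p = 0.0308). In low-glucose-tolerant cells 6 rose and 1 fell, while ABCD3 itself fell. The shares called were 8.33% and 58.3%, both below the 36.1% and 69.2% of all genes. The peroxisome biogenesis factor PEX16 rose from 11.8 ± 0.832 to 38.5 ± 7.87 CPM, the import receptor PEX5 from 33.1 ± 1.45 to 74.0 ± 6.64 CPM and LMBRD1, the partner of ABCD4, from 16.98 ± 0.496 to 31.6 ± 4.48 CPM (edgeR adjusted p = 4.42e-07, 1.75e-06 and 9.92e-05). The gene that fell, named after its value was seen, was PEX3, a docking factor for peroxisomal membrane proteins (log2 fold change -0.41, edgeR adjusted p = 0.00587).

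Heme and iron-sulfur partners of ABCB6 and ABCB10 rose in 5 of 18 cases and fell in 2 in CoCl2-tolerant cells, and rose in 11 and fell in 4 in low-glucose-tolerant cells. That is 38.9% called, near the 36.1% of all genes, and 83.3%, beside 69.2% of all genes. TMEM14C, a carrier of porphyrin intermediates in mitochondria, rose from 80.8 ± 3.16 CPM to 138 ± 10.5 and 184 ± 29.7 CPM (edgeR adjusted p = 0.000262 and 9.82e-07). The mitochondrial glycine carrier SLC25A38 rose from 16.1 ± 0.852 CPM to 24.7 ± 2.69 and 60.9 ± 6.37 CPM (edgeR adjusted p = 0.00140 and 6.95e-09). The iron importer SLC25A37 fell from 173 ± 2.13 to 111 ± 4.23 CPM in CoCl2-tolerant cells (edgeR adjusted p = 0.000431), and the cluster scaffold ISCU rose from 98.2 ± 2.998 to 267 ± 43.2 CPM in low-glucose-tolerant cells (edgeR adjusted p = 1.22e-07).

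Partners of ABCE1 and the ABCF proteins in ribosome recycling and amino acid sensing rose in 4 of 11 cases and fell in 2 in CoCl2-tolerant cells, and rose in 1 and fell in 6 in low-glucose-tolerant cells. That is 54.5% called beside 36.1% of all genes, and 63.6%, near the 69.2% of all genes. The ribosome anti-association factor EIF6 rose from 77.2 ± 5.08 CPM to 119 ± 34.1 and 214 ± 53.7 CPM (edgeR adjusted p = 0.0209 and 1.00e-05). GCN1, a sensor of stalled ribosomes, fell from 432 ± 18.8 to 296 ± 40.8 CPM and its kinase partner EIF2AK4 from 200 ± 5.05 to 145 ± 5.11 CPM in CoCl2-tolerant cells (edgeR adjusted p = 0.0106 and 0.00349). In low-glucose-tolerant cells the quality-control factors NEMF and LTN1 fell from 30.03 ± 2.03 to 10.8 ± 1.10 CPM and from 39.3 ± 1.03 to 21.2 ± 4.11 CPM (edgeR adjusted p = 7.34e-07 and 0.000131). Ribosomal protein genes took 3.52 to 3.67% of counts in control libraries, 4.29 to 5.35% in those of the CoCl2-tolerant line and 7.25 to 10.8% in those of the low-glucose-tolerant line, and the part of this shift in these values was not tested.

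**Figure D5:**
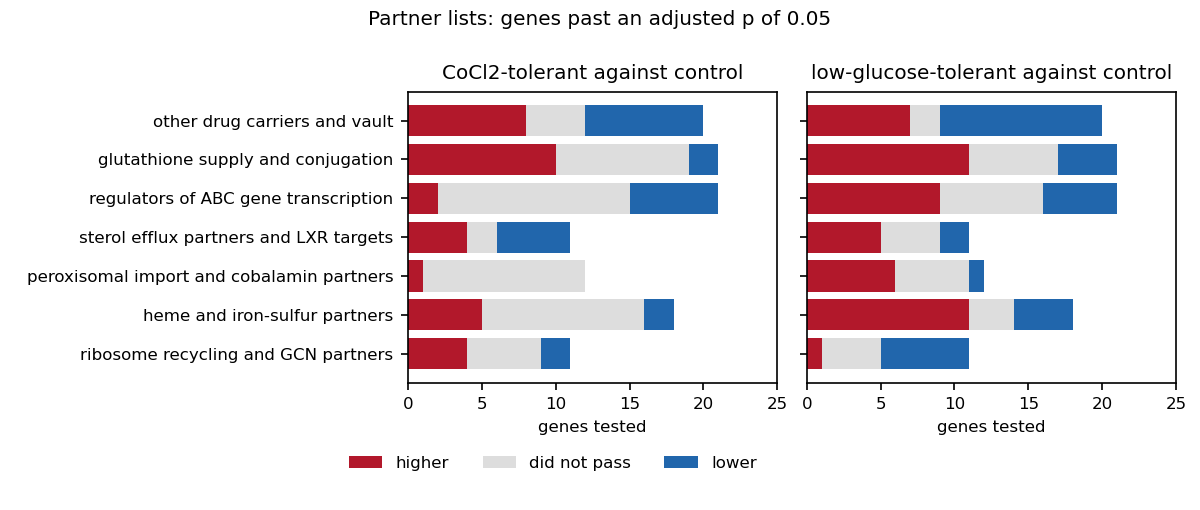
Number of tested genes of each partner list that were higher, lower or did not pass (edgeR adjusted p under 0.05) in each tolerant line against control. Glutathione genes were more often higher than lower (10 against 2 and 11 against 4 of 21), and ribosome recycling partners were lower in 6 of 11 cases in low-glucose-tolerant cells. Of all genes, 17.9% were higher and 18.2% lower in CoCl2-tolerant cells, and 34.6% in each direction in low-glucose-tolerant cells.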

How the data were processed

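The authors deposited a raw read count per gene for each of 9 libraries. The tools named in the submitters' processing notes are featureCounts and DESeq2, with the build GRCh38. No aligner, annotation release or strandedness is named (not given in the sources used here). Symbols were found for 35938 of 36018 gene identifiers, and positions and merged exons for 34888 in GENCODE release 29.

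Genes passing filterByExpr (17902) were fitted with edgeR 4.0.16 in R 4.3.3 by quasi-likelihood on all 9 libraries, with TMM scaling (factors 0.922 to 1.04), 1 mean per group and no covariate. Benjamini-Hochberg adjustment of p-values ran over all genes tested in each of 3 comparisons, with calls under 0.05. The common biological coefficient of variation was 12.6%. CPM use each library's summed counts over the genes tested, times the TMM factor, also for genes under the filter. Intervals for ratios of summed counts are exact, conditional on the sum (95%), and cover counting error only. PCR duplicates were not removed with molecular identifiers. The fit was tested on simulated counts. Alternatives were DESeq2 1.42.0, its size factors, library totals, no filter, at least 5 CPM in 3 libraries, only the 2 groups compared, a replicate block, each library left out in turn and, added after the data were seen, removal of a trend on length and GC content.

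The rule for naming took every member, except that some results are not reported here; the counts include them. It gave library values for members past 2-fold in any comparison and for ABCB1, ABCB4, ABCC1 to ABCC5, ABCG2, ABCA1, ABCG1 and ABCE1, and up to 3 genes per list and comparison with control that passed, by size of change, where the higher group reached 1 CPM. Members and lists were chosen with earlier results of these data known. Lists were described by counts and medians and not tested as sets. Promoter windows come from RefSeq. Protein sequences were not used here.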

Additional observations from a re-analysis of the deposited data

Results flagged for a closer look

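In 4 ABC genes the tolerant lines passed the test against control in opposite directions. The difference between the lines follows from that choice of genes and is given as a description. CoCl2-tolerant minus low-glucose-tolerant log2 differences were 2.70 for ABCB6, 2.33 for ABCA5, -2.92 for ABCB4 and -1.29 for ABCG2. All 3 libraries of a line lay on the same side of control in each of these genes. For ABCG2 the CoCl2-tolerant call against control was lost without any 1 of 5 libraries (edgeR adjusted p = 0.0619 to 0.0883), and for ABCA5 the low-glucose-tolerant call was lost once the trend on length and GC was removed (-0.23, edgeR adjusted p = 0.284).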

How the results depend on the processing

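In CoCl2-tolerant cells the count of 18 called members ranged from 10 to 21 when 1 library was left out. As a share of the members tested, that was 28.6 to 61.8%, against 24.4 to 43.3% of all genes. The count was 11, 10 and 11 without control replicate 1, 2 or 3 and 11 without CoCl2-tolerant replicate 1. Of the 18, 8 were called under every alternative that tested them: ABCA1, ABCA5, ABCA12, ABCB4, ABCB6, ABCC6, ABCC9 and ABCF2. ABCB4 was tested in 16 of 17 alternatives, as were ABCA4, ABCA13 and ABCG2 in the comparisons below. In low-glucose-tolerant cells the count of 19 ranged from 19 to 23 with a library left out and from 16 to 22 otherwise. Of the 19, 16 were called under every alternative that tested them, the exceptions being ABCA5, ABCC11 and ABCE1. The shares of members called were 54.3 to 67.6% and 46.7 to 66.7%, against 61.9 to 70.1% and 37.9 to 73% of all genes. Between the lines the count of 20 ranged from 14 to 23, and 14 were called under every alternative that tested them. The share of members called there ran from 48.5 to 67.6%, against 34.5 to 69.2% of all genes. The number of members tested differed between settings, from 26 to 45. No value that was called changed its sign under the alternatives run. Removal of the trend on length and GC also gave calls against control to members without one. They were ABCA3, ABCC5, ABCC10, ABCD4 and ABCF1 in CoCl2-tolerant cells. In low-glucose-tolerant cells they were ABCA2, ABCA13, ABCC3, ABCC10 and ABCF1. Over single members, 725 of 770 values under other settings and 809 of 891 with a library left out kept their side of the threshold. With library totals in place of TMM, the low-glucose-tolerant median of all genes moved from -0.008 to -0.108. The split of calls in CoCl2-tolerant cells was 10 higher and 8 lower, 12 and 6 with no filter, 10 and 3 with at least 5 CPM in 3 libraries, and 15 and 7 once the trend on length and GC was removed. In these runs 54.5, 40, 50 and 66.7% of members were called, against 36.1, 18.9, 40.6 and 44.5% of all genes. Between the lines the split was 10 and 10, and 10 and 4 with at least 5 CPM in 3 libraries (60.6 and 53.8% of members, against 63.9 and 66.3% of all genes). With a replicate block the members called were 16, 19 and 20 (48.5, 57.6 and 60.6%), against 34, 67.7 and 62.2% of all genes. After removal of group means, libraries of different groups with the same number correlated at -0.26 to 0.124, and those with different numbers at -0.242 to 0.205. With 3 libraries per group this is a weak check of pairing, and the numbers were treated as names that pair nothing. A level of 3 counts, 0.0918 to 0.119 CPM, limits what can be said of the 12 members under the filter.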

Other observations

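Genes beside the members, chosen after their values were seen, showed further differences. ABCC9 forms potassium channels with the pore subunits KCNJ8 and KCNJ11. KCNJ8, which lies next to ABCC9 on chromosome 12, went from 16.3 ± 0.573 CPM in control to 8.86 ± 1.25 CPM in CoCl2-tolerant and 22.3 ± 1.48 CPM in low-glucose-tolerant cells (edgeR adjusted p = 0.000118 and 0.00456). KCNJ11 went from 0.523 ± 0.209 to 0.275 ± 0.110 and 2.003 ± 0.326 CPM (edgeR adjusted p = 0.0856 and 5.17e-05). Thus ABCC9 and KCNJ8 both rose in the low-glucose-tolerant line, and in the CoCl2-tolerant line ABCC9 rose while KCNJ8 fell.

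ANKZF1, a factor that releases stalled chains from ribosomes, begins 10739 bases from ABCB6 on chromosome 2, on the opposite strand. It went from 74.4 ± 1.89 CPM in control to 181 ± 9.84 CPM in CoCl2-tolerant and 39.2 ± 2.91 CPM in low-glucose-tolerant cells (edgeR adjusted p = 4.77e-07 and 1.72e-06), the same directions as ABCB6. ATG9A, between them, had 61.3 ± 1.22 CPM in control, 68.3 ± 9.30 CPM in CoCl2-tolerant and 47.7 ± 10.97 CPM in low-glucose-tolerant cells (edgeR adjusted p = 0.434 and 0.0432). Nearby RETREG2, ZFAND2B, GLB1L and STK16 rose in low-glucose-tolerant cells, where ABCB6 fell. Their log2 fold changes there were 1.17, 0.68, 0.67 and 1.32 (edgeR adjusted p = 2.6e-07, 0.00047, 0.0013 and 8.9e-07). In CoCl2-tolerant cells RETREG2 and ZFAND2B rose (0.46 and 0.59, edgeR adjusted p = 0.0037 and 0.0041), and GLB1L and STK16 did not pass. CROT, a peroxisomal carnitine acyltransferase beside ABCB4 on chromosome 7, rose in both lines, from 8.37 ± 0.987 CPM to 12.9 ± 0.528 and 14.4 ± 0.775 CPM (edgeR adjusted p = 0.00155 and 5.57e-05), while ABCB4 fell in 1 line and rose in the other. Around ABCB1 and ABCB4, TMEM243 rose in low-glucose-tolerant cells (log2 fold change 1.09, edgeR adjusted p = 4.35e-05). DMTF1 and DBF4 fell there (-1.01 and -1.06, edgeR adjusted p = 3.23e-06 and 3.8e-05). None of TMEM243, DMTF1 and DBF4 passed in CoCl2-tolerant cells, and SLC25A40 and ADAM22 passed in neither line. MAP2K6, beside ABCA5 on chromosome 17, fell in both lines, from 10.4 ± 0.638 CPM to 7.38 ± 0.342 and 4.91 ± 0.265 CPM (edgeR adjusted p = 0.00595 and 2.77e-06).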
